A study of Mus musculus with 6 samples.

Results

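The subject is a group of 10 genes for transcription factors tied to fibroblast activation: Runx1, Runx2, Scx, Meox1, Twist1, Snai1, Snai2, Zeb1, Zeb2 and Prrx1. Chromatin regions were taken as theirs when the authors' annotation assigned a CUT&Tag region to 1 of these symbols. In all, 161 of the 456310 region entries in 4 tables met this rule. For TGF-b against NC there were 69 of 170890 regions in the T set (8 genes) and 14 of 52723 in the S set (6 genes). For TGF-b with siRNA against TGF-b there were 62 of 180118 regions in the T set (9 genes) and 16 of 52579 in the S set (6 genes). Many entries recur between the tables, and the T set held 109 distinct intervals and the S set 21.

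When cardiac fibroblasts become myofibroblasts, they take on stress fibres, contract and secrete matrix under the drive of TGF-b and stiffness. The RUNX factors bind DNA with the partner CBFB. SNAI1, SNAI2, TWIST1, ZEB1 and ZEB2 are the classical factors of epithelial-mesenchymal transition, which recognize E-box sequences and mostly repress epithelial genes. SCX is a tendon factor that drives collagen genes, whereas MEOX1 and PRRX1 are homeobox factors found in mesenchymal cells. TAZ is a coactivator that reaches DNA through TEAD proteins and conveys mechanical signals, and SRF is a factor of the CArG box that drives cytoskeletal genes.

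Every library came from primary mouse cardiac fibroblasts, and 2 sets, marked T and S in the titles, held 3 libraries each. The study used antibodies to TAZ and SRF, so T is taken as TAZ and S as SRF, although no label names the antibody. Per set, 1 library was labelled NC, 1 TGF-b, and 1 TGF-b combined with SiTAZ (T set) or SiSRF (S set). The study's own text describes an siRNA to Piezo2 in these experiments, so the arm is called siRNA here. A Tet3 deletion by Cre is mentioned in the series' design text, but no sample label carries it, and the age and pooling of the mice were not given in the sources used here. The study's mouse lines had a C57BL/6 J background. With 1 library per arm there was no replicate, so no difference below was set against biological spread and no test of a treatment was possible. In bulk chromatin, fewer cells with an association and a weaker association per cell cannot be told apart.

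The measured value is the authors' normalized read density, reads plus 1 per kb in a window of 2 kb around the region's centre, rescaled so that regions called in both libraries centre on 0. Read numbers were recovered from it. Depth was low. Member regions called in a library held a median of 7 to 11 reads, with 3 to 63 in any 1 region, against medians of 7 to 13 reads over all called regions. Each log2 ratio is given with a 95% counting interval (Wilson), which covers counting error only. A fold against 0 reads is given with the 0 set to a floor of 3 reads. Beside it stands the finite limit of its log2 interval, which lies nearer to no change than that fold. A region enters a comparison through a call in at least 1 of its 2 libraries, so regions called in 1 library were selected on high reads there. Reads of 1 to 3 are used as counted, with the value for reads set to 3 beside it where the fold moves by over 1.5 times. Values at the floor are plain ratios of reads on the authors' scale, without the read that the density adds to each number. Promoter regions of 4 of 6 fibroblast markers and 2 of 3 myofibroblast markers were among the regions of the T set table of TGF-b and NC, beside 1 of 3 cardiomyocyte, 1 of 3 endothelial and 2 of 3 macrophage markers. With siRNA the T set table held 3 of 6 fibroblast, 2 of 3 myofibroblast, 2 of 3 cardiomyocyte, 0 of 3 endothelial and 1 of 3 macrophage markers. The S set tables held 1 of 6 (TGF-b and NC) and 0 of 6 (siRNA) fibroblast markers, and each held 1 of 3 myofibroblast, 1 of 3 cardiomyocyte and no endothelial or macrophage marker. These are occupancy and not transcripts, and the cell type was not checked further by them.

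The promoter sequences of 4 members are shown because a region of these libraries lay at their start sites and the results return to each of them. They are the 250 bases before the RefSeq start, in the direction of the gene, on GRCm38.p6, whereas region coordinates are on GRCm39, so no sequence was read at a region's own coordinates. Of the 10 members, 6 were matched in the promoter table. Capitals mark matches on either strand to 4 spelled motifs: CATTCC (TEAD), CACCTG (the E-box of SNAI and ZEB factors), TGTGGT (RUNX) and TGANTCA (AP-1). The CArG box of SRF was searched by name, and none of the 4 sequences held it. The lines give Snai1 (chr2:167537945-167538194, plus strand), Twist1 (chr12:33957421-33957670, plus strand), Runx1 at its proximal start (chr16:92697330-92697579, minus strand) and Zeb2 (chr2:45110278-45110527, minus strand).
Snai1: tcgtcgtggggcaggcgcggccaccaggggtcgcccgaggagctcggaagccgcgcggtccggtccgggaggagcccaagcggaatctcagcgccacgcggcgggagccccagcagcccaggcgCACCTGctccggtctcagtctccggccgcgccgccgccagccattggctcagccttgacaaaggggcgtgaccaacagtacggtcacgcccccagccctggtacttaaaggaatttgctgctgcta
Twist1: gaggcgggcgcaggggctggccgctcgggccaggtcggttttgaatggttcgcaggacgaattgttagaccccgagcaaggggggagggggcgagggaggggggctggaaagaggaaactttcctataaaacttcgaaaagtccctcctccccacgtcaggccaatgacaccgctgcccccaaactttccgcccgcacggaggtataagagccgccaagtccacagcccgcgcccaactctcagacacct
Runx1: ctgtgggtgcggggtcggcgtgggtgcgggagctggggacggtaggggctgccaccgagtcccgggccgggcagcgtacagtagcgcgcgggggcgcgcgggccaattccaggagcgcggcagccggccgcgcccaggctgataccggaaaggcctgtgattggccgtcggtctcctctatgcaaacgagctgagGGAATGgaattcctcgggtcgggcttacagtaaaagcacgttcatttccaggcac
Zeb2: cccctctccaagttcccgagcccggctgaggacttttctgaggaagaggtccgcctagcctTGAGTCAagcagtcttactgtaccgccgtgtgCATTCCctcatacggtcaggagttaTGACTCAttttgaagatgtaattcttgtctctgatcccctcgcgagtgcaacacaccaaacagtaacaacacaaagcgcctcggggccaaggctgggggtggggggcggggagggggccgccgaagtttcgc

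The Snai1 promoter held 1 E-box, at 126 to 121 bases before the start. The Runx1 promoter held 1 TEAD motif at 55 to 50 bases before the start. Zeb2 had a TEAD motif at 157 to 152 bases and AP-1 motifs at 189 to 183 and at 132 to 126 bases, and the Twist1 window held none of the motifs. Among 32851 RefSeq promoter windows of the same length, 12.6% held the TEAD motif, 17.2% the E-box, 14% the RUNX motif, 6.75% the AP-1 motif and 1.47% the CArG box. The RefSeq start differed from the GENCODE start by 0 bases for Snai1 and Twist1, by 4 bases for the Runx1 transcript and by 175 bases for the Zeb2 transcript that the tables give to the 5' UTR regions described below. That Zeb2 start lies upstream of the RefSeq start and inside the printed window. The TEAD motif and the AP-1 motif at 132 to 126 bases are therefore downstream of it. Other regions of Runx1 and Zeb2 are measured from other transcripts, up to 1834 bases from a RefSeq start for Runx1 and 87362 bases for Zeb2. A match describes letters only, and nothing about binding was drawn from it.

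Regions of the members were unevenly spread over the libraries. In the T set, 50 were called under NC, 21 under TGF-b and 43 in the siRNA library. As a share of all regions called in the same library this was 0.0394%, 0.0395% and 0.032%. The fewer member regions under TGF-b thus went with fewer called regions in that library as a whole. In the S set, 5 were called under NC, 9 under TGF-b and 7 with siRNA, or 0.0179%, 0.0348% and 0.0244% of all called regions. Runx1 had 17 called regions under NC, 4 under TGF-b and 12 with siRNA in the T set, the most of any member under NC and with siRNA. Zeb1 had 11, 6 and 7, the most under TGF-b, and Runx2 had 9, 2 and 11. Snai2 had no region in the T set, and Meox1, Snai1 and Prrx1 had none in the S set.

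**Figure D1:**
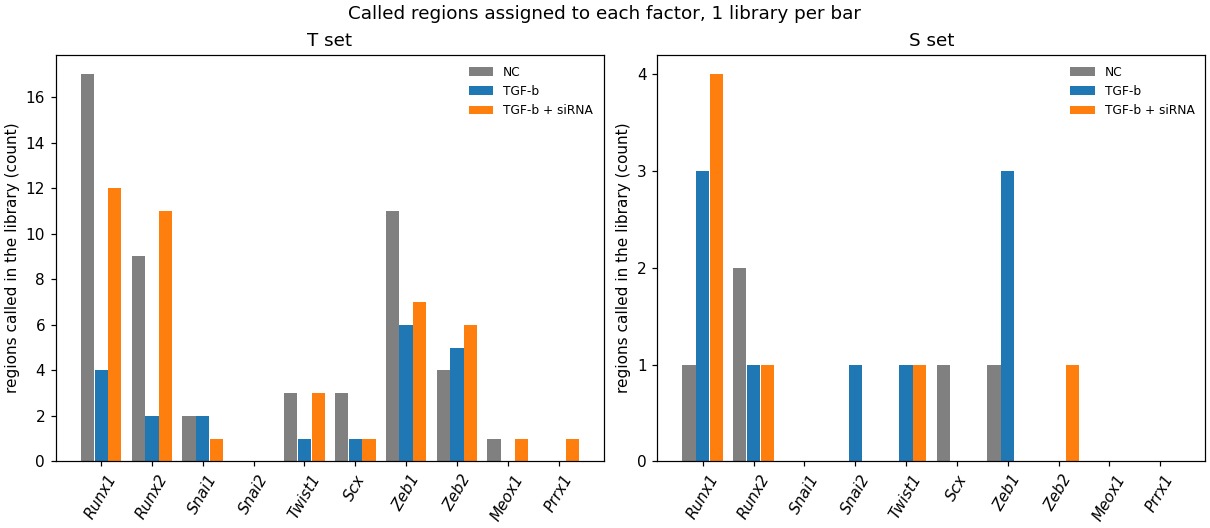
Number of regions called in each library and assigned to each of the 10 factors; each bar is 1 library, with the T set on the left and the S set on the right, on axes of different height. Runx1 had 17, 4 and 12 called regions under NC, TGF-b and siRNA of the T set, and Zeb2 was the only member with more under TGF-b (5) than under NC (4) there.

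TGF-b was first compared with NC. Of the 69 T set member regions, 7 had at least 2-fold higher density with TGF-b, beside 17.3% of all regions of the table, and 22 were at least 2-fold lower, beside 42.1%. Members past the threshold in either direction were thus 10.1% and 31.9% of the 69, both below the shares of the table. The median log2 ratio of the members was -0.32 (95% rank interval -0.80 to -0.09) against -0.65 over all regions. By the counting interval, 7 member regions were wholly above 0, beside 14.8% of all regions, and 15 wholly below 0, beside 31.1%. Among members past the threshold, 24.1% were higher, beside 29.2% of all regions past it. After centring on the median over the whole table, 17 were higher and 14 lower, or 54.8% higher, beside 49.6%. Centred in the same way, 26.7% of all regions were higher and 27.2% lower. The surplus of lower regions before centring was thus shared by the whole table.

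The S set gave few regions. There, 3 of 14 member regions were at least 2-fold higher under TGF-b, beside 17.4% of all regions, and 2 were at least 2-fold lower, beside 26.7%. The median log2 ratio was 0.13 (-0.37 to 1.14) against -0.20 over all regions. Counting intervals lay wholly above 0 for 1 member region, beside 11.5%, and wholly below 0 for 1, beside 19.2%. The S set table moves with its normalization. Without the authors' line, the median of all regions was 0.36 and that of the members 0.70.

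The siRNA library was then set against TGF-b. Of 62 T set member regions, 31 were at least 2-fold higher with siRNA, beside 49.7% of all regions, and 13 were at least 2-fold lower, beside 16.2%. At the floor of 3 reads, 6 of the 58 members with a value were lower (10.3%, beside 10.7%), so the count of lower members depends on regions with 3 or fewer reads. Member and table medians were 0.95 (0.45 to 1.46) and 0.97. Counting intervals were wholly above 0 for 27 members, beside 38.9%, and wholly below 0 for 10, beside 11.4%. Higher regions were 70.5% of the members past the threshold, beside 75.4% in the table, and 52.6% (20 higher and 18 lower), beside 50.3%, after centring, when 29.2% of all regions were higher and 28.9% lower. Both member shares thus lay near those of the table. Of 16 S set member regions, 2 were at least 2-fold higher, beside 15.1%, and 3 at least 2-fold lower, beside 27.8%. The median was 0.08 (-0.99 to 0.63) against -0.21 over all regions. Counting intervals were wholly above 0 for 1 member, beside 10.2%, and wholly below 0 for 2, beside 21.8%. After centring, 3 members were higher and 2 lower (beside 20.4% and 22.7% of all regions), which turned the share of higher regions from 40% to 60%, beside 35.3% and 47.3% in the table. The 7 Runx1 regions weigh on this median, and without them it was -0.86.

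**Figure D2:**
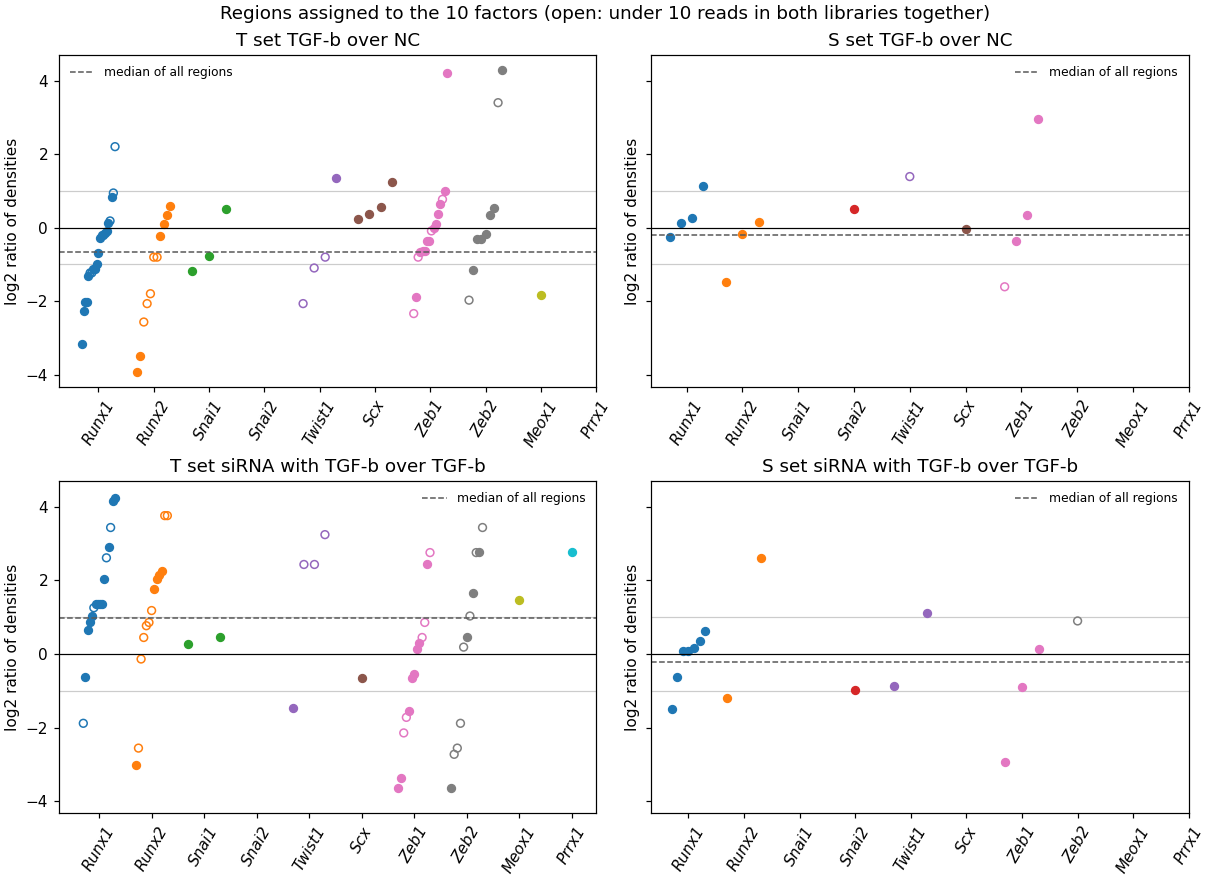
Log2 ratio of the normalized read densities at each region of the 10 factors, by comparison; each point is 1 region, open where the 2 libraries together held under 10 reads, the grey lines mark 2-fold, and the dashed line is the median of all regions of that table. In the T set with TGF-b over NC, 7 points lie above and 22 below the 2-fold lines, and with siRNA over TGF-b 31 lie above and 13 below.

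Runx1, a RUNX factor better known from blood formation, had the most regions of any member in the T set. For TGF-b against NC in the T set it had 21 regions, of which 1 was at least 2-fold higher (4.76%, beside 17.3% of all regions) and 9 at least 2-fold lower (42.9%, beside 42.1%). The median of -0.69 on the log2 scale was close to the table's -0.65, and after centring 3 were higher and 4 lower (beside 26.7% and 27.2%). Of the 9 lower regions, 8 lay in intron 2 of 7, between the distal and the proximal start. At chr16:92604089-92604178 the density was 18.6 under NC and 4.60 under TGF-b (37 and 8 reads), a log2 ratio of -2.02 (-3.23 to -1.07). The adjoining region at chr16:92604281-92604472 shared these reads and is no separate observation. At chr16:92618037-92618110, 4.593 kb from the distal start, the density was 9.46 under NC and 1.06 under TGF-b (19 reads and 1 read), a log2 ratio of -3.16 (-6.64 to -1.53), or -2.50 with the single read set to 3. The low value under TGF-b at these sites was 1 to 8 reads, against 19 to 37 under NC.

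At the proximal Runx1 start the interval included 0. A region in the 5' UTR, chr16:92493561-92493683, 591 bases from the start whose promoter is printed above, had densities of 19.0 under NC and 15.5 under TGF-b (37 and 30 reads). Its log2 ratio of -0.29 (-0.99 to 0.39) was not distinguishable from 0 at this depth. Near the distal start, a promoter region at chr16:92624675-92624929 had 33 reads under NC and 14 under TGF-b, with a log2 ratio of -1.14 (-2.08 to -0.31), which was -0.48 after centring. The counting intervals of the 2 Runx1 start sites overlapped.

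With siRNA in the T set, 12 of 16 Runx1 regions were at least 2-fold higher than under TGF-b (75%, beside 49.7% of all regions) and 1 was at least 2-fold lower (6.25%, beside 16.2%). The median log2 ratio was 1.37 against 0.97 over the table, and after centring 6 of the 16 were higher and 2 lower (beside 29.2% and 28.9%). The region with the most siRNA reads was in intron 2, chr16:92569222-92569297. Its density was 0.85 under TGF-b and 15.2 with siRNA (1 and 25 reads), a log2 ratio of 4.15 (2.56 to 7.64), or 3.51 with the single read set to 3. At chr16:92561868-92561971 there were 0 reads under TGF-b and 13 with siRNA, 5.90-fold higher with the 0 set to 3 reads (lower log2 limit 2.20). In the 5' UTR, at chr16:92493803-92493892, 366 bases from the proximal start, the density was 14.4 under TGF-b and 9.42 with siRNA (33 and 15 reads), and the log2 ratio of -0.62 (-1.53 to 0.20) included 0. Centred on the table's median it was -1.59 (-2.50 to -0.77), so the call at this start depends on the centring. Without Runx1, 19 of the remaining 46 member regions of this comparison were higher (41.3%, beside 49.7%) and 12 lower (26.1%, beside 16.2%).

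In the S set, Runx1 had 4 regions for TGF-b against NC. The deepest was in intron 2, chr16:92520357-92520591, with densities of 10.3 under NC and 11.2 under TGF-b (16 and 26 reads) and a log2 ratio of 0.12 (-0.73 to 1.04). Against TGF-b, its density was 13.1 under TGF-b and 4.62 with siRNA (26 and 8 reads), a log2 ratio of -1.51 (-2.74 to -0.51). It was the only 1 of 7 Runx1 regions of that table past the 2-fold threshold (14.3% lower, beside 27.8% of all regions, and 0 higher, beside 15.1%). The other 6 had log2 ratios between -0.62 and 0.63. A further S set region near the proximal start, chr16:92495634-92495756, 1.479 kb upstream, held 12 reads in either library.

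Runx2, the RUNX factor of bone formation, had 11 regions for TGF-b against NC in the T set, and 10 of them lay in introns of the neighbouring gene Supt3. None was at least 2-fold higher and 5 were at least 2-fold lower (45.5%, beside 42.1% of all regions), in 4 groups of windows, and centring gave 1 and 5 (beside 26.7% and 27.2%). The lowest log2 ratio among all member regions of that table was here. At chr17:45147529-45147699, 21.93 kb upstream of the assigned start and in intron 2 of 11 of Supt3, the density was 31.2 under NC and 2.05 under TGF-b. The 3 T set libraries held 63 reads under NC, 3 under TGF-b and 13 with siRNA. The log2 ratio was -3.93 (-5.91 to -2.73) for TGF-b over NC, then 2.26 (0.86 to 4.28) for siRNA over TGF-b. The adjoining region at chr17:45147912-45148130, with 58 and 4 reads, had a log2 ratio of -3.49 (-5.20 to -2.38) and overlapping reads. Centred on the table's median, the siRNA ratio of the first of these regions was 1.29 (-0.11 to 3.31), which included 0. That region was called under NC and with siRNA but not under TGF-b. Reads at this locus were thus high under NC and near the floor under TGF-b, whereas the rise with siRNA depends on the centring.

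At Runx2 itself, the region nearest to a start in the T set was chr17:45048971-45049049, 1.475 kb upstream. Its densities of 4.83 under NC and 7.25 under TGF-b (9 and 13 reads) gave a log2 ratio of 0.59 (-0.56 to 1.82). The overlapping S set region at chr17:45048828-45048980 had densities of 7.95 and 2.86 (12 and 6 reads), a log2 ratio of -1.47 (-2.94 to -0.22). Centred, the T set value was 1.24 (0.09 to 2.48) and the S set value -1.28 (-2.75 to -0.02). Without the authors' line the S set value was -0.89, inside the 2-fold threshold. The point estimates of the 2 sets at this promoter had opposite signs, on few reads, and that contrast of sets was not tested. With siRNA in the T set, 7 of 13 Runx2 regions were at least 2-fold higher (53.8%, beside 49.7%) and 2 at least 2-fold lower (15.4%, beside 16.2%), shares near those of the table. After centring 5 were higher and 3 lower (beside 29.2% and 28.9%). The nearest to a start, chr17:45050497-45050562 in intron 1 of 6, held 2 reads under TGF-b and 8 with siRNA, a log2 ratio of 2.03 (0.39 to 4.51). The deepest read count of these 13 regions with siRNA was 13. In the S set, chr17:45183541-45183655 in Supt3 held 1 read under TGF-b and 10 with siRNA (2.61 on the log2 scale, interval 0.87 to 6.07, or 1.89 with the single read set to 3), and chr17:45287997-45288166 held 5, 9 and 3 reads under NC, TGF-b and siRNA.

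Snai1, a repressor of E-cadherin, had the only member region called in all 3 T set libraries. This region, chr2:167379877-167380130, covers the start site and, counted from it, most of the promoter window printed above, with its centre 0.112 kb upstream. Its densities were 27.0 under NC and 12.005 under TGF-b (53 and 23 reads), a log2 ratio of -1.17 (-1.90 to -0.50). Centred on the table's median it was -0.52 (-1.25 to 0.15), no longer past 2-fold. The siRNA library held 20 reads, and the log2 ratio of siRNA over TGF-b, 0.28 (-0.58 to 1.12), included 0. After centring that ratio was -0.69 (-1.55 to 0.15), of opposite sign and still including 0. In exon 1 of 3, at chr2:167380238-167380328, the densities were 27.1 and 15.9 (53 and 31 reads), a log2 ratio of -0.77 (-1.42 to -0.15), which was -0.11 after centring. The 3' UTR region chr2:167384050-167384219 had 6, 8 and 8 reads. Reads at the Snai1 start were thus highest under NC, with 23 and 20 in the TGF-b and siRNA libraries.

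Snai2 encodes the related repressor SLUG and appeared only in the S set. A promoter region at chr16:14523297-14523605, centred 0.265 kb upstream of the start, held 8 reads under NC, 18 under TGF-b and 8 with siRNA. Its densities were 5.48 under NC and 7.80 under TGF-b, a log2 ratio of 0.51 (-0.57 to 1.77). Against TGF-b, the siRNA value was -0.99 (-2.25 to 0.09), just inside the 2-fold threshold. Both intervals included 0, so neither difference was detectable at this depth.

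Twist1, a basic helix-loop-helix factor of mesenchymal cells, had its deepest T set region at its start. The 5' UTR region chr12:34007621-34007932, centred 106 bases downstream of the start, held 7 reads under NC, 18 under TGF-b and 4 with siRNA. Densities of 3.87 under NC and 9.83 under TGF-b gave a log2 ratio of 1.35 (0.24 to 2.68). Against TGF-b the density was 8.10 under TGF-b and 2.93 with siRNA, a log2 ratio of -1.47 (-3.21 to -0.22). Reads at the Twist1 start were highest in the TGF-b library, which enters both ratios. Its other regions lay 87.3 kb or more away, most of them inside Hdac9, and held at most 6 reads per T set library and 11 per S set library.

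Zeb1, a zinc-finger repressor, had 16 regions for TGF-b against NC in the T set, of which 2 were at least 2-fold higher and 2 at least 2-fold lower (12.5% each, beside 17.3% and 42.1% of all regions). The median log2 ratio was -0.23, and centring gave 5 higher and 2 lower (beside 26.7% and 27.2%). The promoter region, chr18:5591396-5591468, 0.428 kb upstream, had densities of 5.74 under NC and 3.66 under TGF-b (11 and 6 reads), and its log2 ratio of -0.65 (-2.13 to 0.63) included 0. Far inside intron 1 of 7, at chr18:5701520-5701704, the libraries held 0 reads under NC, 15 under TGF-b and 3 with siRNA. With the 0 set to 3 reads, the density was 5.75-fold higher under TGF-b than under NC (lower log2 limit 2.17). The log2 ratio of siRNA over TGF-b was -1.54 (-3.56 to -0.18). At chr18:5763934-5764073 in intron 5 of 7 the order was the reverse, with 19 reads under NC and 4 under TGF-b and a log2 ratio of -1.88 (-3.62 to -0.64). Zeb1 introns thus held both the higher and the lower kind of region.

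More Zeb1 regions were lower than higher in the siRNA comparison. Of 13 T set regions, 2 were at least 2-fold higher (15.4%, beside 49.7% of all regions) and 5 at least 2-fold lower (38.5%, beside 16.2%). At the floor, 3 of 12 remained lower, beside 10.7%. All 5 lower regions were called only under TGF-b, and the 2 higher ones only with siRNA. Of the 13 regions, 6 were called only under TGF-b, beside 25.3% of all regions. The surplus of lower regions cannot be told apart from this selection. The median log2 ratio was -0.55, and centring gave 2 higher and 7 lower (beside 29.2% and 28.9%). At chr18:5603424-5603609 the T set libraries held 18, 13 and 0 reads under NC, TGF-b and siRNA, and at chr18:5681151-5681359 they held 13, 16 and 0. With the 0 set to 3 reads, these regions were 3.19-fold and 3.92-fold lower with siRNA, respectively (upper log2 limits -1.31 and -1.61). Other Zeb1 regions were close to level, as at chr18:5610180-5610276, where 14 and 11 reads gave a log2 ratio of 0.14 (-0.996 to 1.23). At chr18:5763787-5763862, 2 reads under TGF-b and 11 with siRNA gave a log2 ratio of 2.45 (0.90 to 4.92). In the S set, chr18:5712263-5712446 in intron 2 of 7 held 8, 16 and 1 reads. Its log2 ratios were 0.35 (-0.76 to 1.62) for TGF-b over NC and -2.95 (-6.43 to -1.30) for siRNA over TGF-b, or -2.28 with the single read set to 3. The S set region chr18:5584255-5584429, inside Gm10125, held 0, 11 and 5 reads. With the 0 set to 3, it was 2.39-fold higher under TGF-b than under NC (lower log2 limit 0.90).

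Zeb2 encodes the second ZEB factor and had 9 regions for TGF-b against NC in the T set, 2 of them higher and 2 lower by at least 2-fold (22.2% each, beside 17.3% and 42.1%), or 3 and 1 after centring (beside 26.7% and 27.2%). At its start both intervals included 0. The 5' UTR region chr2:45000385-45000482, 31 bases from the start, held 8, 11 and 11 reads under NC, TGF-b and siRNA, and its log2 ratios were 0.53 (-0.70 to 1.85) and 0.46 (-0.71 to 1.63). In intron 3 of 10, chr2:44957204-44957512 held 0, 16 and 0 reads. With 0 reads set to 3, it was 6.12-fold higher under TGF-b than under NC (lower log2 limit 2.26). With siRNA it was 3.92-fold lower than under TGF-b (upper log2 limit -1.61). A similar pattern of 0, 8 and 0 reads was found at chr2:44931199-44931312, 3.12-fold higher with TGF-b when 0 is set to 3 (lower log2 limit 1.29). With siRNA, 5 of 11 Zeb2 regions were at least 2-fold higher (45.5%, beside 49.7%) and 4 at least 2-fold lower (36.4%, beside 16.2%), or 3 higher and 4 lower after centring (beside 29.2% and 28.9%). All 4 lower regions were called only under TGF-b, as were 5 of the 11 (beside 25.3% of all regions), and held 0 siRNA reads. At the floor 1 of 11 was at least 2-fold lower, beside 10.7%. The deepest of the higher regions was chr2:44909933-44910059 in intron 4 of 10, with 6 reads under TGF-b and 15 with siRNA (1.65 on the log2 scale, interval 0.46 to 3.10). After centring it was 0.68 (-0.51 to 2.13), no longer past 2-fold. The S set held a single Zeb2 region, in the siRNA table, with 2 and 4 reads.

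Scx regions all lay downstream of the gene, in intron 3 of 15 of the neighbouring gene Bop1, and no region was assigned to the Scx start. They were among the deepest. At chr15:76345503-76345669, 3.866 kb from the Scx start, the T set libraries held 45, 54 and 24 reads. The log2 ratios were 0.23 (-0.33 to 0.80) for TGF-b over NC and -0.66 (-1.38 to -0.0043) for siRNA over TGF-b. After centring they were 0.88 (0.32 to 1.45) and -1.63 (-2.35 to -0.98), so both calls depend on the centring. The 3 other T set regions had 41 to 42 or 11 reads under NC. At chr15:76345898-76346081 the densities were 21.8 under NC and 32.1 under TGF-b (42 and 64 reads). The log2 ratio was 0.56 (0.02 to 1.13), or 1.21 (0.67 to 1.78) after centring. At chr15:76347359-76347442 they were 5.87 and 13.8 (11 and 26 reads), a log2 ratio of 1.23 (0.31 to 2.30). All 4 Scx regions had log2 ratios above 0 with TGF-b. At least 2-fold higher were 1 of them, or 3 after centring (beside 17.3% and 26.7% of all regions). Their windows overlap in 1 group, however, and count as 1 locus. The S set region at the same place, chr15:76345945-76346035, held 10 and 15 reads and had a log2 ratio of -0.03 (-1.11 to 1.14).

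Meox1, a homeobox factor, was covered only in exon 1 of 3 and only in the T set. The region chr11:101784601-101784676 had densities of 11.1 under NC and 3.11 under TGF-b (22 and 5 reads), a log2 ratio of -1.84 (-3.39 to -0.68). A neighbouring region called with siRNA, chr11:101784442-101784520, held 5 reads under TGF-b and 11 with siRNA, a log2 ratio of 1.46 (0.13 to 3.06), which was 0.49 after centring. The centred interval of that second region, -0.84 to 2.08, included 0. The first region was called only under NC and the second only with siRNA, so each was selected on high reads there. Reads are not scaled between libraries, so no order of the libraries was drawn at this exon. Prrx1, a homeobox factor of limb and skin mesenchyme, had 1 region in the 4 tables. It lay in intron 1 of 4, chr1:163125980-163126048, 15.223 kb from the start, and held 1 read under TGF-b and 9 with siRNA, a log2 ratio of 2.77 (1.01 to 6.23), or 2.03 with the single read set to 3.

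Regions held by both tables of a set can be followed across the 3 libraries. They numbered 22 for the T set and 9 for the S set, and the reads of TGF-b recovered from either table were equal in all of them. Of the 21 T set member regions called under TGF-b, 3 held 0 reads under NC (14.3%, beside 23.6% of all 53121 regions called in that library) and 10 held 0 reads with siRNA (47.6%, beside 31.5%). Those without siRNA reads were 4 at Zeb2, 3 at Zeb1, 2 at Runx2 and 1 at Runx1. The partners and paralogs described below had 11 of 25 such regions (44%) and the fibroblast identity factors 1 of 9 (11.1%). The median over the 21 regions was 6 reads under NC, 8 under TGF-b and 1 with siRNA, against 5, 10 and 3 over all regions. Among S set member regions, 1 of 9 held 0 reads under NC and none held 0 with siRNA, beside 5.46% and 5.77% of all, with medians of 5, 11 and 5 reads. These read numbers are not scaled between libraries, and regions called under TGF-b were selected on high TGF-b reads.

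**Figure D3:**
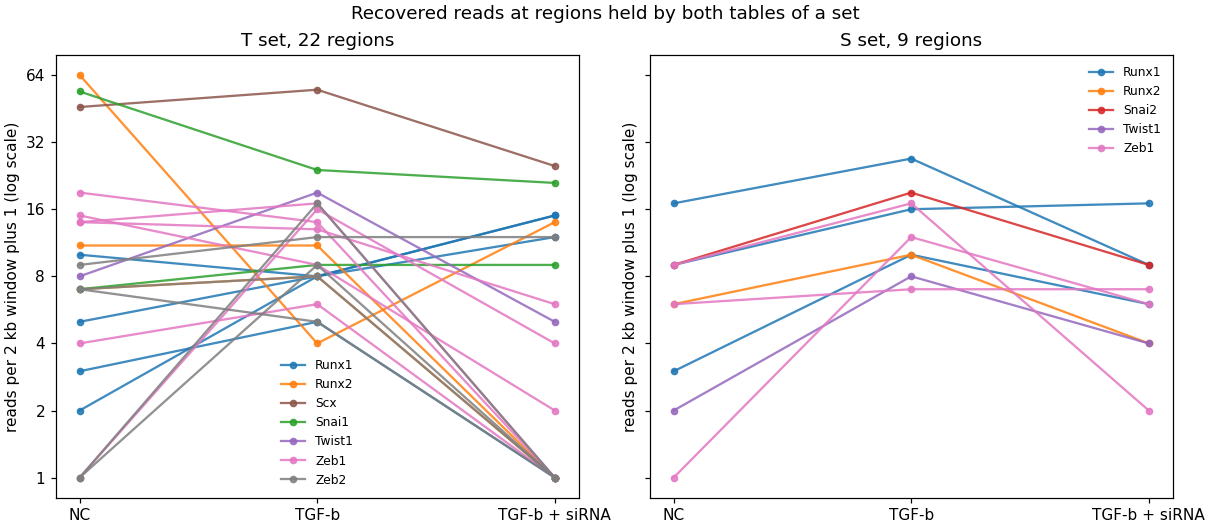
Recovered reads plus 1 per 2 kb window on a log scale at the member regions present in both tables of a set (22 T set and 9 S set regions), coloured by gene; each line is 1 region and joins 3 separate libraries. The Runx2 line falls from 63 to 3 reads and returns to 13, and 10 lines of regions called under TGF-b end at 0 reads with siRNA in the T set.

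Member regions lay far from start sites. In the T set table of TGF-b and NC, 57 of 69 were in introns (82.6%, beside 74.6% of all regions with a gene). Only 7 lay within 1 kb of a start (10.1%, beside 17.1%), whereas 49 lay beyond 10 kb (71%, beside 52.4%) and 23 beyond 50 kb (33.3%, beside 19.3%). The S set was alike, with 12 of 14 in introns and 10 of 14 beyond 10 kb (71.4%, beside 53.6%). Of the 69 T set regions, 17 lay inside another gene, as did 5 of 14 in the S set, so their assignment to a factor rests on nearness alone. The 7 regions near T set starts were not alike, since Twist1 was higher under TGF-b, Snai1 and Meox1 were lower by the counting interval (Snai1 only before centring), and Runx1, Zeb1 and Zeb2 had intervals that included 0.

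**Figure D4:**
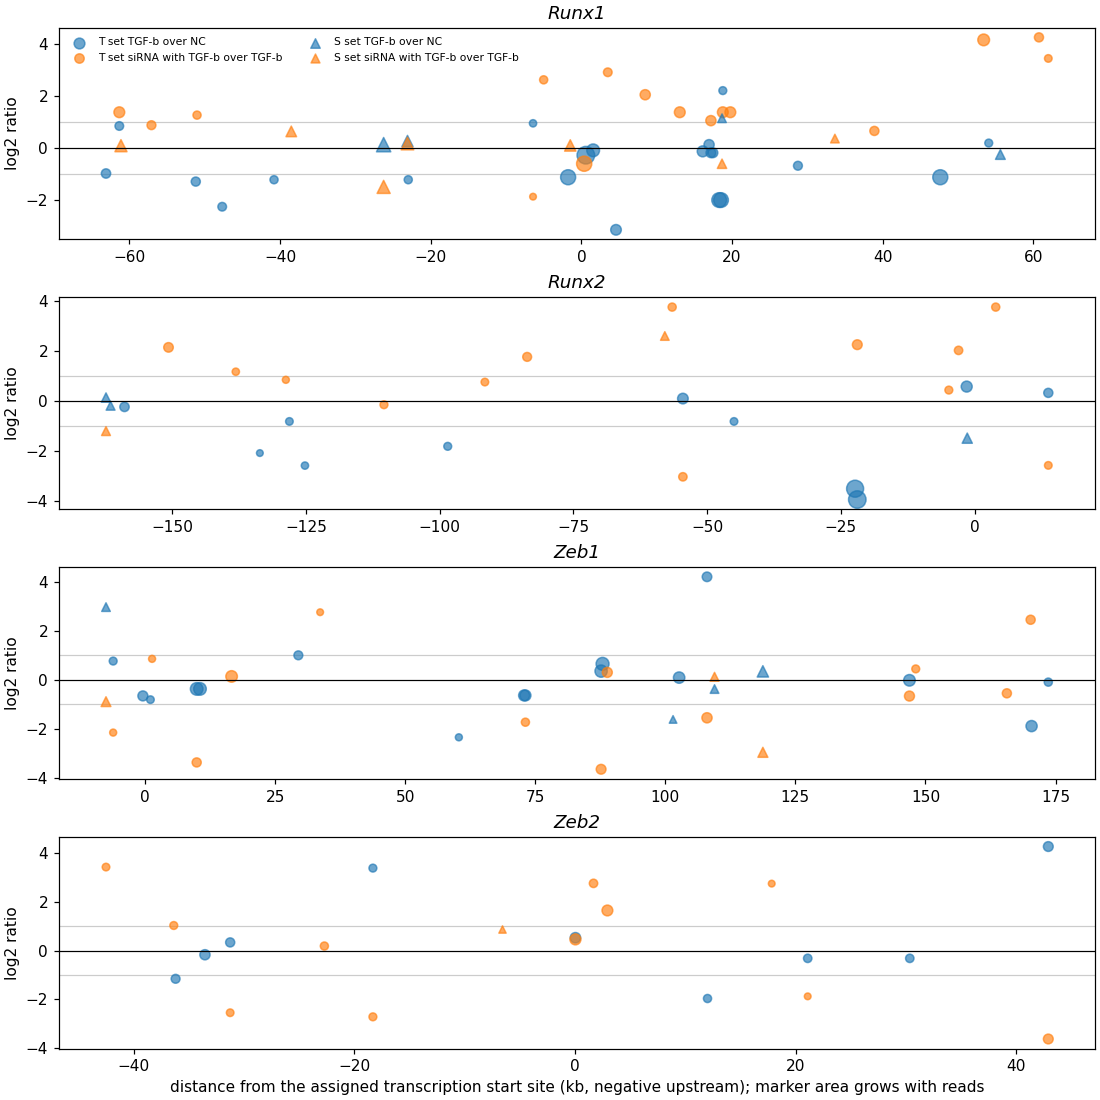
Log2 ratio against the distance from the assigned start site (kb, negative upstream) for regions of Runx1, Runx2, Zeb1 and Zeb2; circles are the T set, triangles the S set, blue is TGF-b over NC, orange is siRNA with TGF-b over TGF-b, and marker area grows with reads. At Runx1 most orange circles lie above the upper 2-fold line (12 of 16, beside 49.7% of all regions), and the Runx2 pair with the largest fall lies 22 kb upstream.

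The 2 sets met at few member regions. For TGF-b against NC, 4 of the 69 T set regions overlapped an S set region by at least 1 base (5.8%, beside 3.98% of all T set regions), and 4 of the 14 S set regions overlapped a T set region (28.6%, beside 12.7%). They were the Scx and Runx2 pairs given above and a pair of Runx1 sites. In intron 4 of 7 of Runx1, the T set region chr16:92473543-92473676 held 1, 7 and 14 reads and the S set region chr16:92473630-92473800 held 2, 9 and 5. For TGF-b over NC the log2 ratios were 2.20 (0.37 to 5.65, or 1.42 with the single read set to 3) and 1.14 (-0.47 to 3.61). For siRNA over TGF-b they were 1.37 (0.19 to 2.73) and -0.62 (-2.24 to 0.78), and this was the only overlapping pair in the siRNA tables. After centring these siRNA ratios were 0.40 (-0.78 to 1.76) and -0.41 (-2.02 to 0.99), and both intervals included 0. In the siRNA tables, 1.61% of T set and 6.25% of S set members overlapped, beside 4.69% and 15.9% of all regions. At an overlap of 50% of the shorter region, 1 T set and 1 S set member remained for TGF-b over NC (1.45%, beside 3.3%, and 7.14%, beside 10.6%), so the members' shares lay above the table's only at the 1-base rule. At the other Runx1 site, near chr16:92517171-92517241, the T set held 7 and 2 reads and the S set 8 and 15.

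Other genes of the pathway were taken from 2 lists. The first held 11 partners and paralogs, such as Cbfb, the E proteins Tcf3, Tcf4 and Tcf12, and the corepressors Ctbp1 and Ctbp2. Of its 74 T set regions, 12 were at least 2-fold higher with TGF-b (16.2%, beside 17.3% of all regions) and 26 at least 2-fold lower (35.1%, beside 42.1%), with a median log2 ratio of -0.33. Centring gave 23 higher and 20 lower (beside 26.7% and 27.2%). With siRNA, 33 of 71 were higher (46.5%, beside 49.7%) and 21 lower (29.6%, beside 16.2%, median 0.85), and 18 and 24 after centring (beside 29.2% and 28.9%). Tcf4 held more of these regions than any other gene of the list, 25 and 27 in the 2 tables. Of the S set regions of this list, 5 of 15 were higher and 3 lower with TGF-b (33.3% and 20%, beside 17.4% and 26.7%, median 0.57), and 6 of 26 were higher and 6 lower with siRNA (23.1% each, beside 15.1% and 27.8%, median -0.30).

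The second list held 11 factors of cardiac fibroblast and progenitor identity, such as Gata4, Tbx18, Mef2c and Wt1. Of its 39 T set regions, 6 were at least 2-fold higher with TGF-b (15.4%, beside 17.3%) and 19 at least 2-fold lower (48.7%, beside 42.1%). Their median log2 ratio was -0.99, and centring gave 10 higher and 12 lower (beside 26.7% and 27.2%). All 3 regions of Tbx18, an epicardial factor, were lower (median -2.19), as were 8 of 13 of Mef2c, whose product is a cardiac MADS-box factor. Medians above 0 were found for Gata6 (0.16), Wt1 (0.16, with 1 of 5 regions higher and 0 lower) and Tbx20 (0.05). With siRNA, 24 of 42 were higher (57.1%, beside 49.7%) and 4 lower (9.52%, beside 16.2%, median 1.51), and 18 and 11 after centring (beside 29.2% and 28.9%). All 4 Tbx5 regions were higher (median 2.69), whereas the median of the 5 Gata6 regions was 0.04. S set counts were 3 higher and 2 lower of 8 with TGF-b (37.5% and 25%, beside 17.4% and 26.7%), and 3 and 3 of 13 with siRNA (23.1% each, beside 15.1% and 27.8%), the latter 5 and 2 after centring (beside 20.4% and 22.7%). Tcf21, a marker factor of resident fibroblasts, had no region in any of the 4 tables.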

How the data were processed

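Chromatin association was profiled by CUT&Tag, in which an antibody directs a transposase to its target, in 6 libraries of mouse cardiac fibroblasts with 1 library per arm. The study's methods state Bowtie2 alignment to GRCm39 and peak calling by the authors with a program spelled Masc2, whereas the submitters' processing notes name mm10 and BWA 0.7.12. The gene starts in the files are those of GRCm39, since 1 of 10 members lay within 1 kb of its GRCm38 RefSeq start, so coordinates are given as GRCm39. The authors deposited 4 tables, each over the merged peaks of 2 libraries, and made the normalized read density, a signal per kb, by rescaling reads plus 1 along a straight line that sets peaks shared by both libraries around 0. Such a step removes a change common to shared peaks. Columns with the authors' own fold and p-value were not used. The nearest gene, annotation and distance are the authors' assignment.

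With the line undone, 99.98% to 99.99% of regions came out as whole reads to within 0.1. Log2 ratios of densities were taken within a table, since tables were normalized separately. A region was called past 2-fold, or when its Wilson 95% interval, from the share of reads in the second library, lay wholly above or below 0. The Wilson intervals cover counting error only, and the floor of 3 reads is a setting. The rank intervals of medians come from the spread among regions taken as independent, which neighbouring regions are not. They do not measure biological spread. Windows of neighbouring regions overlap, and the 69, 14, 62 and 16 member regions formed 56, 13, 55 and 15 separate groups of windows. Total library depth was not used. The recovery of known ratios was tested on simulated data.

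The regions named were, per gene and table, the one nearest to a start and the one with the highest mean log2 density, and up to 5 of the largest rises and falls past 2-fold with at least 20 reads. Further regions were chosen after their values were seen. The members and gene lists were chosen with earlier results of these data known. Alternatives were centring on the median, the values without the authors' line, a threshold of 1.5-fold, at least 10 reads, reads of 3 or fewer set to 3 (as plain ratios, without the added read), and an overlap of 50%. RefSeq promoter sequences are of GRCm38.p6. Python 3.11.15 with pandas 2.3.3, numpy 2.4.6, scipy 1.17.1 and matplotlib 3.10.9 was used.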

Additional observations from a re-analysis of the deposited data

Results flagged for a closer look

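The median log2 ratio of member regions for TGF-b over NC was -0.32 for the T set but 0.13 for the S set, of opposite sign under the same contrast. The difference was not tested, since each arm is 1 library, and the medians rest on 69 and 14 regions that share few sites. The median of all regions was -0.65 in one table and -0.20 in the other, below 0 in both, and became 0.36 in the S set table without the authors' line. Centred on these medians, the member medians were 0.33 in both sets, so the opposite sign was present only before centring.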

How the results depend on the processing

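No paired analysis was possible because each arm holds 1 library, and for the same reason no replicate could be left out. Of the 29, 5, 44 and 5 member regions past 2-fold in the 4 tables, none changed sign under centring or without the authors' line. At the floor, 42 of the 44 had a value, and 2 of these, each with 4 reads against 0, changed sign. Centring on the median of all regions gave the T set a member median of 0.33 with 17 higher and 14 lower for TGF-b over NC (24.6% and 20.3%, beside 26.7% and 27.2% of all regions), and a median of -0.020 with 20 higher for siRNA over TGF-b (32.3%, beside 29.2%). This follows from its construction, since it subtracts -0.65 and 0.97. At a threshold of 1.5-fold, 12 T set members were higher for TGF-b over NC (17.4%, beside 22.5% of all regions), and 4 were higher and 7 lower for siRNA over TGF-b in the S set (25% and 43.8%, beside 25.3% and 38.7%). With at least 10 reads, fewer regions remained, and 13 T set members (26%, beside 39.3%) and 1 S set member (8.33%, beside 23.9%) were lower for TGF-b over NC, with 18 higher and 6 lower in the T set with siRNA (51.4% and 17.1%, beside 44.3% and 13.9%). When low reads were raised to 3, which also leaves out the read added to each number, 1 S set member was higher for TGF-b over NC (7.14%, beside 16.7%), and 6 were lower with siRNA in either set (10.3%, beside 10.7%, in the T set and 37.5%, beside 29.7%, in the S set). Without the authors' line, 1 S set member was lower for TGF-b over NC (7.14%, beside 15.3%) and 6 were lower with siRNA (37.5%, beside 31.5%). Requiring an overlap of 50% left 1 T set and 1 S set member overlapping the other set for TGF-b over NC (1.45% and 7.14%, beside 3.3% and 10.6%), and 0 and 0 with siRNA (beside 4.03% and 13.8%).

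Alternatives chosen after the data were seen bear on which regions count. Without Runx1, 13 of 48 T set members were lower for TGF-b over NC (27.1%, beside 42.1% of all regions) and 19 of 46 were higher with siRNA (41.3%, beside 49.7%). Without regions inside another gene, 1 of 9 S set members was higher for TGF-b over NC (beside 17.4%) and 0 of 11 with siRNA (beside 15.1%). With 1 mean value per group of overlapping windows, 1 of 15 S set members was higher with siRNA (beside 15.1%). With low reads raised to 3 and the added read kept, 13 T set members were lower (18.8%, beside 28.5%) and 0 S set members higher (beside 11.7%) for TGF-b over NC, and 6 T set members were lower with siRNA (10.3%, beside 8.43%). The count of lower S set members with siRNA was then 3, as with the reads as counted, so its move to 6 came with leaving out the added read. The cause of these moves was not tested beyond the smaller number of regions. Depth is a limit beside the single library per arm, since 34.8% of T set members for TGF-b over NC and 62.9% with siRNA held 3 or fewer reads in at least 1 library, as did 49.3% and 57.9% of all regions.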
